A study of Mus musculus with 18 samples.

Results

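Transcripts that mark T cells and natural killer (NK) cells were followed across macrophage populations sorted from the mouse lung. The 10 genes, Cd3e, Cd3g, Cd3d, Trbc2, Lck, Il2rb, Nkg7, Gzma, Gzmb and Klrd1, were chosen by symbol from the 21254 genes of the count table, and all 10 had enough reads to be tested. The mice inhaled nebulized LPS of Pseudomonas aeruginosa (12.5 mg in 5 ml for 15 min), and 24 h later CD45+CD11b+ lung cells were sorted into moMs (MHC-II-Ly6C+), tnsIMs, which the sample labels call trIMs (MHC-II+Ly6C+), and matIMs (MHC-II+Ly6C-). Each population was taken from WT mice (Ez+/+ with Cx3cr1Cre+) and from Ezr-KOm mice (Ez fl/fl with Cx3cr1Cre+), both on a B6 background, with 3 libraries for each of the 6 groups. Every mouse thus carried the Cre, and no library came from an untreated lung. The mice were 3 to 5 months old and of both sexes, and the study used 3 mice of each genotype. Cre was driven by the Cx3cr1 locus, which according to the study is also active in some NK cells, conventional dendritic cells and eosinophils. By the methods, the sorted populations came from CD11c- CD11b+ cells, so that CD11c+ alveolar macrophages and CD11c+ dendritic cells (CD24 high, CD64 negative) were gated away, and granulocytes were set aside by CD24 and MHC-II and divided by Ly6G and SiglecF. The methods give other Ly6C and MHC-II signs for matIMs in 1 passage, and the signs of the labels are used here. The sources name no T or NK cell marker for excluding these cells from the sort.

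T cells recognise antigen through a receptor whose chains, such as the constant segment encoded by Trbc2, sit in the membrane with the CD3 proteins encoded by Cd3d, Cd3e and Cd3g, and the kinase Lck passes the signal inward. NK cells and cytotoxic T cells kill through granules that hold granzymes and perforin, and NK cells are steered by lectin-like receptors encoded side by side in the NK gene complex, among them CD94 (Klrd1). Macrophages are not known for making the CD3 chains, so in sorted macrophages these transcripts are usually read as a trace of lymphocytes.

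Across moMs, tnsIMs and matIMs, 9 of the 10 transcripts had population means of 2.14 to 15.9 CPM and did not pass the test between any populations. Klrd1 alone rose, from a mean of 1.496 CPM (counts scaled to a common library size) among moMs to 3.56 among tnsIMs and 49.7 among matIMs. No transcript of the 10 passed the test between Ezr-KOm and WT in any population.

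To set the rising gene beside the cytotoxic genes that did not move with it, the 250 bases before the annotated start of Klrd1, Nkg7, Gzma and Gzmb are given here from GRCm39, 5' to 3' on the strand of the gene. They cover chr6:129568427-129568676 (plus strand) for Klrd1, chr7:43086247-43086496 (plus strand) for Nkg7, chr13:113237525-113237774 (minus strand) for Gzma and chr14:56499718-56499967 (minus strand) for Gzmb. Capitals mark matches to any of 5 motifs searched on both strands: GAGGAAGT (an ETS motif of the kind bound by PU.1), TGTGGTT (RUNX), AGGTGTGA (T-box), TTCNNNGAA (STAT) and an IRF motif.
Klrd1: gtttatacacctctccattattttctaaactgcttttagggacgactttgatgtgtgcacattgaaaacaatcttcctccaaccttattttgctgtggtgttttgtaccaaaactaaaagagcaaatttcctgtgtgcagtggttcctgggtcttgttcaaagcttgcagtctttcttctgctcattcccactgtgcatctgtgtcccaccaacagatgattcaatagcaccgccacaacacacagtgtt
Nkg7: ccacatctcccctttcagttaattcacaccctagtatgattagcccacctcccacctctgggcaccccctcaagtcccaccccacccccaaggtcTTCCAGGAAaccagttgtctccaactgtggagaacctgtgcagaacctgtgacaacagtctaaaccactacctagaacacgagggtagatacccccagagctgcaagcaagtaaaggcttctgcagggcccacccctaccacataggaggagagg
Gzma: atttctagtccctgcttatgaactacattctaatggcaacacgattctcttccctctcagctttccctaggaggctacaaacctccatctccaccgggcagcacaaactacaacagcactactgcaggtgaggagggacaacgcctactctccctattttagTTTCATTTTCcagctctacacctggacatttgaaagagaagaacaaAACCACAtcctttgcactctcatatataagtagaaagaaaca
Gzmb: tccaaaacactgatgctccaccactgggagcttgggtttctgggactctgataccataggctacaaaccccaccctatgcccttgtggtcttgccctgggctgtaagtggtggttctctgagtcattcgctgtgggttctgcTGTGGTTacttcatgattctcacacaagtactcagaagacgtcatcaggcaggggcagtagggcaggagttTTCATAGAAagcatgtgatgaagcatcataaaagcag
The Klrd1 window held none of the 5 motifs. Nkg7 held a STAT match, Gzma held RUNX and IRF matches, and Gzmb held RUNX and STAT matches, with no match overlapping another. Of windows of the same length before 14805 protein-coding genes of the table, 2.24% held the ETS motif, 3.91% the RUNX motif, 0.736% the T-box motif, 6.82% the STAT motif and 3.31% the IRF motif. Among all 10 genes the RUNX motif was found in 3 windows, the STAT motif in 3 and the IRF motif in 1. A match is only a run of letters, and no binding was measured.

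Library totals ranged from about 16512800 to about 48461000 counts (median 24086600), and the deepest was tnsIM Ezr-KOm replicate 2. The lowest count of any of the 10 transcripts in any library was 21, so none lay at the floor of detection. Ezr, the gene targeted in the knockout, lay between 497 and 741 CPM in the 9 WT libraries and between 93.9 and 282 CPM in the 9 Ezr-KOm libraries, with no overlap in any population. The labels therefore match the targeted gene in every library. The summed level of 7 macrophage genes was highest in moMs and lowest in matIMs. The sum of Csf1r, Cd68, Adgre1, Fcgr1, Mertk, Lyz2 and Itgam was 22206 to 31424 CPM in moMs, 13013 to 19707 in tnsIMs and 7510 to 9767 in matIMs. The order of the sum was not that of every gene. In matIMs against moMs all but Adgre1 (log2 -0.36) were called lower, from -0.43 for Cd68 to -1.91 for Lyz2. In tnsIMs against moMs, Csf1r, Cd68, Fcgr1 and Mertk did not pass the test, while Lyz2 (-0.93), Adgre1 (-0.72) and Itgam (-0.32) fell. The call of Itgam ended on leaving out any of 9 libraries. Because the libraries are bulk samples, a different number of lymphocytes and a different amount of RNA per cell cannot be told apart for the 10 transcripts.

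Klrd1 encodes CD94, which pairs with NKG2 proteins to form receptors for MHC class I molecules. Its gene lies at chr6:129568745-129575738 on GRCm39, and no transcript of another gene of the annotation matched its own on the same strand. Matches on the other strand were not searched, although the library kits do not mark strand. In moMs, Klrd1 stood at 1.88, 1.41 and 0.827 CPM in WT replicates 1 to 3 and at 2.09, 1.27 and 1.498 CPM in Ezr-KOm replicates 1 to 3. In tnsIMs it stood at 2.92, 2.66 and 4.94 CPM in WT and at 3.37, 3.57 and 3.90 CPM in Ezr-KOm. In matIMs it stood at 54.8, 52.3 and 47.6 CPM in WT and at 45.5, 44.8 and 53.5 CPM in Ezr-KOm. The 3 populations did not overlap: every tnsIM library lay above every moM library, and every matIM library lay above every tnsIM library. The counts behind these levels were 21 to 48 reads in moMs and 1225 to 1302 reads in matIMs.

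The increase of Klrd1 from moMs to tnsIMs was 2.43-fold (log2 fold change 1.28, SE 0.19, adjusted p = 4.08e-05 by edgeR's quasi-likelihood test with Benjamini-Hochberg adjustment). From moMs to matIMs it was 33.7-fold (log2 fold change 5.07, SE 0.20, 95% interval 4.66 to 5.48, adjusted p = 7.84e-13), and from tnsIMs to matIMs 13.9-fold (log2 fold change 3.79, SE 0.18, adjusted p = 4.91e-11). Both genotypes showed it: the mean level in matIMs was 37.6 times that in moMs among WT and 29.6 times among Ezr-KOm libraries. The difference between these ratios did not pass the test (interaction log2 -0.37, 95% interval -1.13 to 0.39, adjusted p = 1.00).

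**Figure D1:**
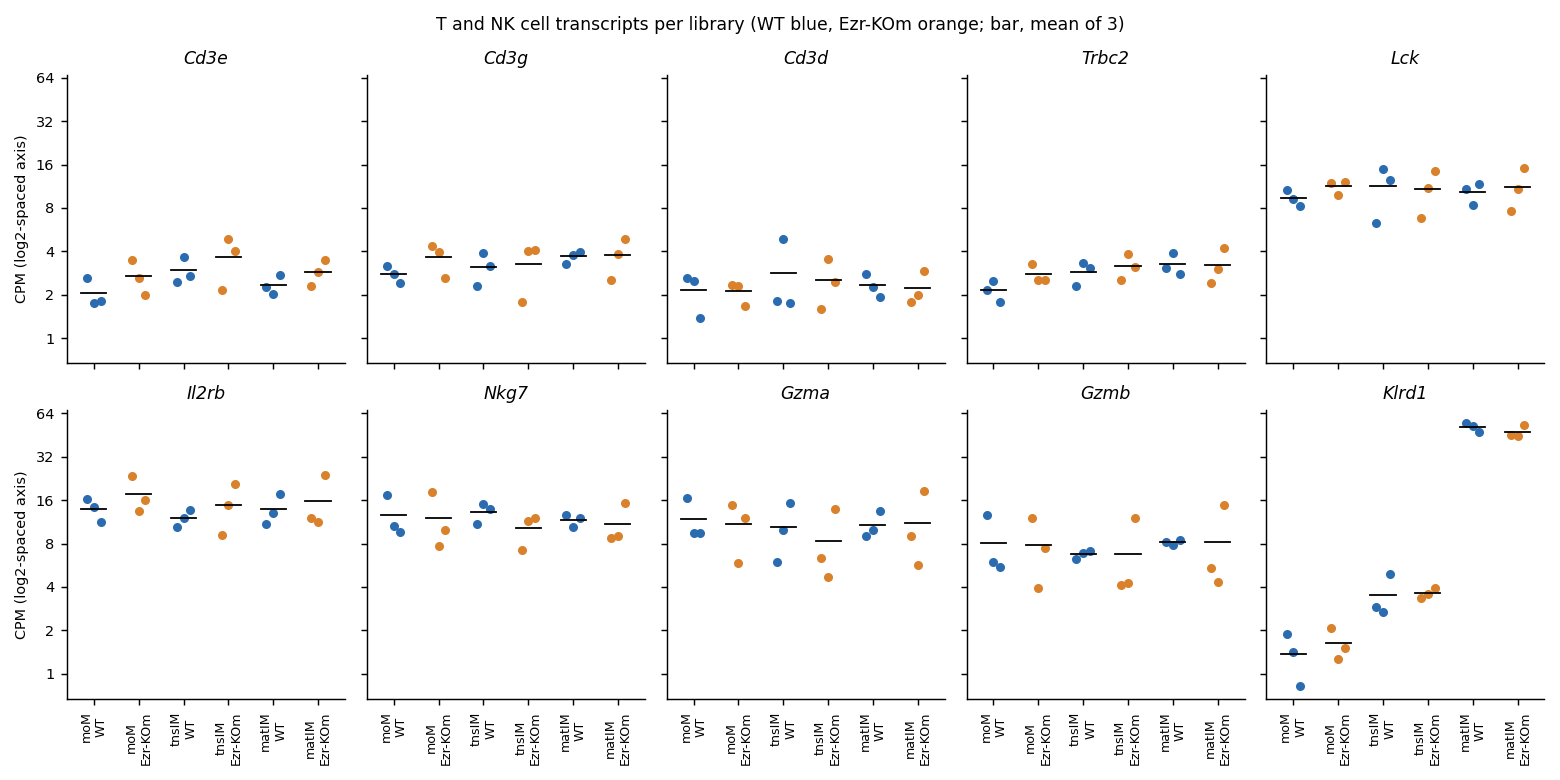
CPM of each of the 10 transcripts (vertical axis, spaced in log2) in the 18 libraries, by population and genotype (horizontal axis). Points are libraries, ordered by replicate number within a group, and bars are means of 3. Klrd1 lies between 44.8 and 54.8 CPM in matIMs and under 5 CPM elsewhere, while the other 9 transcripts keep overlapping ranges.

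Of the 10 transcripts, 1 was higher in tnsIMs than in moMs and 0 were lower, where 19.5% of all 15811 tested genes were higher and 14.6% lower. In matIMs against moMs the counts were 1 higher and 0 lower, against 19.8% and 18.1% of all tested genes. In matIMs against tnsIMs they were 1 higher and 0 lower, against 14.3% and 15.6%. The gene was Klrd1 each time. Without Klrd1, the 9 other transcripts had a median absolute log2 fold change of 0.097 between matIMs and moMs, beside 0.371 over all tested genes. Between tnsIMs and moMs these medians were 0.23 and 0.345, and between matIMs and tnsIMs 0.217 and 0.297.

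The CD3 chains are the subunits that every T cell receptor needs to reach the surface. Their genes, Cd3g, Cd3d and Cd3e, lie together within chr9:44880870-44920925. Cd3e was found at 2.62, 1.74 and 1.81 CPM in WT moMs and at 3.48, 2.62 and 1.98 CPM in Ezr-KOm moMs. In tnsIMs it was found at 2.46, 3.68 and 2.704 CPM in WT and at 2.16, 4.85 and 4.03 CPM in Ezr-KOm. In matIMs it was found at 2.26, 2.01 and 2.76 CPM in WT and at 2.29, 2.86 and 3.48 CPM in Ezr-KOm. The ranges of the 3 populations overlapped, and the 2 highest values were tnsIM Ezr-KOm replicates 2 and 3. The log2 difference between tnsIMs and moMs was 0.49 (95% interval 0.01 to 0.97), with an unadjusted p of 0.0474 and an adjusted p of 0.111 by edgeR. Without tnsIM Ezr-KOm replicate 1, where Cd3e was lowest in that group, the difference was 0.62 and the adjusted p 0.0369. Between matIMs and moMs the log2 difference of Cd3e was 0.14 (95% interval -0.34 to 0.63). In the annotation Cd3e overlaps the non-coding genes Gm48719 and Gm48720, and a library kit that does not mark strand cannot separate their reads.

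Cd3g and Cd3d did not pass the test in any population comparison. Cd3g had means of 3.21 CPM in moMs, 3.20 in tnsIMs and 3.72 in matIMs, with libraries from 1.79 to 4.91 CPM, and its log2 difference between matIMs and moMs was 0.23 (95% interval -0.26 to 0.71). Cd3d had means of 2.14, 2.66 and 2.29 CPM in the same order, with libraries from 1.38 to 4.88 CPM, and its log2 difference between matIMs and moMs was 0.10 (95% interval -0.51 to 0.70). These intervals leave room for a change of up to about 0.7 on the log2 scale in either chain. The highest Cd3d value, 4.88 CPM, came from WT tnsIM replicate 2, which was also the smallest library.

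Trbc2 encodes a constant segment of the T cell receptor beta chain. It was found at 2.16, 2.49 and 1.77 CPM in WT moMs and at 3.26, 2.55 and 2.51 CPM in Ezr-KOm moMs. In matIMs it was found at 3.06, 3.89 and 2.79 CPM in WT and at 2.40, 2.99 and 4.19 CPM in Ezr-KOm. The lowest matIM value lay within the moM range. The log2 difference between matIMs and moMs was 0.40 (95% interval -0.01 to 0.81, adjusted p = 0.122 by edgeR), the largest of the 9 transcripts that did not pass in this comparison. When counts were scaled by library totals alone, it was 0.52 and the adjusted p 0.0475. Trbc2 shares 95.6% identity over 521 bases with the transcript of Trbc1, so reads of the pair may have been split or dropped in counting. Trbc1 itself differed by a log2 of 0.31 between matIMs and moMs, with an adjusted p of 0.341.

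Lck, the kinase that phosphorylates the CD3 chains, was a few times more abundant than they were. Its means were 10.3 CPM in moMs, 11.02 in tnsIMs and 10.8 in matIMs, with libraries from 6.34 to 15.1 CPM. The log2 difference between matIMs and moMs was 0.06 (95% interval -0.39 to 0.51). Lck was highest in replicate 3 of Ezr-KOm in all 3 populations.

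Il2rb encodes the beta chain shared by the IL-2 and IL-15 receptors, which NK cells and memory T cells use to receive survival signals. In moMs it was found at 16.4, 14.4 and 11.2 CPM in WT and at 23.6, 13.5 and 16.1 CPM in Ezr-KOm. In matIMs it was found at 10.9, 13.03 and 17.6 CPM in WT and at 12.01, 11.4 and 23.8 CPM in Ezr-KOm. These ranges overlapped almost entirely, and the log2 difference between matIMs and moMs was -0.09 (95% interval -0.55 to 0.37).

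Nkg7, a membrane protein of cytotoxic granules, averaged 12.3, 11.8 and 11.4 CPM in moMs, tnsIMs and matIMs, with libraries from 7.27 to 18.3 CPM. Its log2 difference between matIMs and moMs was -0.11 (95% interval -0.57 to 0.35). Per kilobase of exon, the scale on which genes can be compared, Nkg7 was the most abundant of the 10 among moMs (13.3 CPM per kb) and tnsIMs (12.8). Among matIMs it came after Klrd1, at 12.4 against 37.3 CPM per kb. The 3 CD3 chains came last in every population, at 0.582 to 1.14 CPM per kb.

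Gzma and Gzmb encode granzymes, the serine proteases that cytotoxic granules release into a target cell. Gzma was found at 16.5, 9.49 and 9.49 CPM in WT moMs and at 14.8, 5.86 and 12.03 CPM in Ezr-KOm moMs. In tnsIMs it was found at 5.97, 9.89 and 15.4 CPM in WT and at 6.36, 4.69 and 13.8 CPM in Ezr-KOm. In matIMs it was found at 9.09, 9.87 and 13.4 CPM in WT and at 9.03, 5.64 and 18.6 CPM in Ezr-KOm. Replicate 2 was the lowest Ezr-KOm library in all 3 populations. Gzmb was found at 12.7, 5.93 and 5.47 CPM in WT moMs, at 12.1, 3.93 and 7.49 CPM in Ezr-KOm moMs, at 8.20, 7.77 and 8.53 CPM in WT matIMs and at 5.41, 4.30 and 14.8 CPM in Ezr-KOm matIMs. The population ranges of both granzymes overlapped. Their log2 differences between matIMs and moMs were -0.05 (95% interval -0.73 to 0.63) for Gzma and 0.05 (95% interval -0.67 to 0.76) for Gzmb.

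The granzymes varied more between replicates than the other transcripts. Within the 6 groups the highest Gzma library was 1.47 to 3.29 times the lowest, and for Gzmb this ratio ran from 1.10 to 3.45. The fitted biological coefficient of variation was 38.7% for Gzma and 40.7% for Gzmb, against 22.4% and 24.4% on the trend of all genes at their levels. For Klrd1 it was 18.4%, against 19.8% on the trend. In matIMs the 3 WT libraries held Gzmb within 4.65% (coefficient of variation), less than the 7.09% that read counting alone would give, and the 3 Ezr-KOm libraries spread over 70.8%. Gzma and Gzmb lay on the same side of their group mean in 17 of 18 libraries, and Nkg7 and Gzmb in 16 of 18. For Cd3e and Klrd1 this count was 10 of 18. The 18 libraries are not independent, since the study's 3 mice per genotype imply that the populations share mice. These counts are a description with no test.

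**Figure D2:**
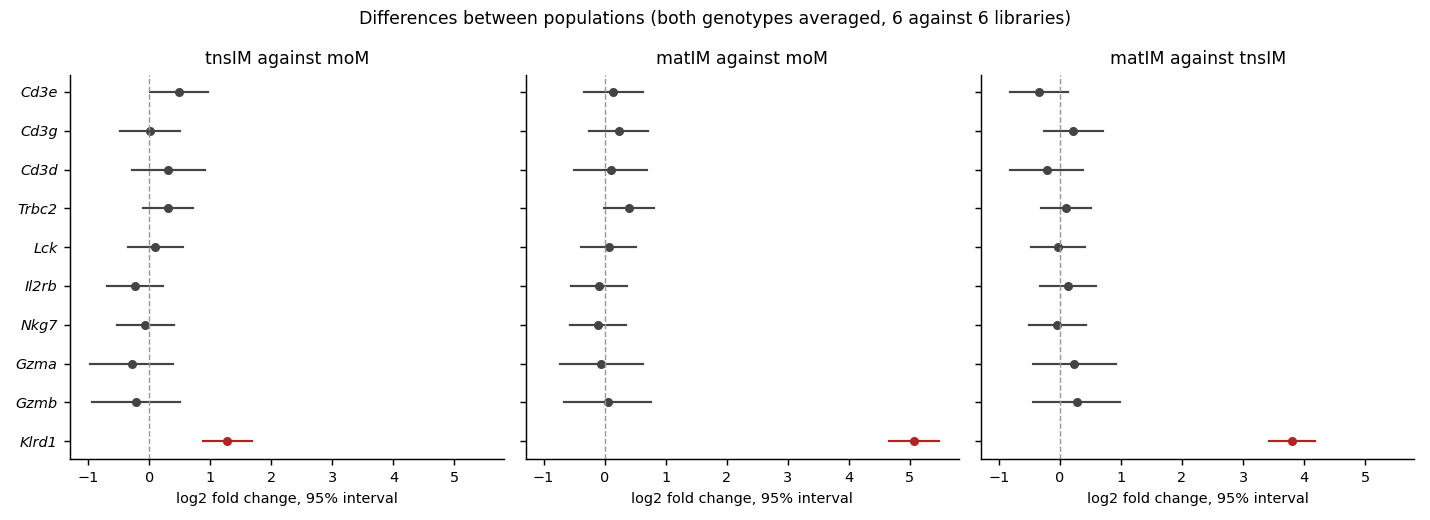
Log2 fold changes of the 10 transcripts between populations, averaged over both genotypes (6 against 6 libraries), with 95% intervals. Red marks an adjusted p under 0.05: Klrd1 at 1.28, 5.07 and 3.79, while the intervals of the other 9 lie within -0.97 and 0.99.

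Klrd1 lies in the NK gene complex, so its neighbours were examined. The table held 27 genes of the killer cell lectin-like receptor (Klr) family on chromosome 6, of which 22 were tested. In matIMs against moMs 10 of them, Klrd1 included, were higher and 2 lower, beside 19.8% and 18.1% of all tested genes. From Klre1 to Klra17 runs a stretch of 299 kb (chr6:129554868-129853635), picked after its values were seen. In it 7 of 8 tested genes, again with Klrd1, were higher in matIMs and none was lower. Beyond Klra17, 0 of 7 were higher and 1 was lower, and before Klre1, 3 of 7 were higher and 1 was lower. Because of how the stretch was picked, its contrast with the genes outside is a description only. Klrk1, which encodes the activating receptor NKG2D, rose from means of 16.1 CPM in moMs to 151 CPM in matIMs (log2 fold change 3.24, SE 0.28, adjusted p = 3.50e-08). Its libraries lay between 7.48 and 30.5 CPM in moMs and between 119 and 180 CPM in matIMs, with no overlap. Between tnsIMs and moMs its log2 difference was 0.83 (adjusted p = 0.0218), and the call ended without moM WT replicate 2, tnsIM WT replicate 1 or tnsIM Ezr-KOm replicate 1 (0.63 to 0.77, adjusted p 0.0512 to 0.0757).

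The other Klr genes are named here after their values were seen. Klri2, an NK cell receptor gene, lay between 1.06 and 1.96 CPM in moMs and between 10.8 and 13.2 CPM in matIMs (log2 fold change 2.99, SE 0.25, adjusted p = 1.59e-08), and in tnsIMs it stayed at the moM level (0.634 to 2.16 CPM). Klra17 behaved alike, with means of 0.826 CPM in moMs, 0.866 in tnsIMs and 7.16 in matIMs. Klri1 had 0 to 6 reads in moM libraries and 213 to 387 reads in matIM libraries. Klre1 rose by 1.64 on the log2 scale, and Klrc2 by 1.16 with an adjusted p of 0.0338 that passed 0.05 no longer when any of 7 libraries was left out (0.93 to 1.197, adjusted p 0.0522 to 0.0893). Klrc1, whose product NKG2A is the usual partner of CD94, did not pass the test (log2 0.23, 95% interval -0.42 to 0.88) and had a mean of 1.43 CPM in matIMs. Outside that stretch, Klrb1b rose by 4.73 on the log2 scale, from a mean of 0.850 CPM in moMs to 22.5 in matIMs. The highest log2 fold change among the 7 genes before Klre1 was 5.94. Klrb1c, which encodes the NK1.1 antigen of NK cells, fell by 0.96, and Klra2 fell by 1.75. In tnsIMs against moMs, Klrb1 was called higher (log2 3.72, adjusted p = 0.0425 by edgeR), a call that ended on leaving out any of 13 libraries. The Klra, Klrb1 and Klrc families hold similar copies, so reads may be shared among them and their values are uncertain to that extent.

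**Figure D3:**
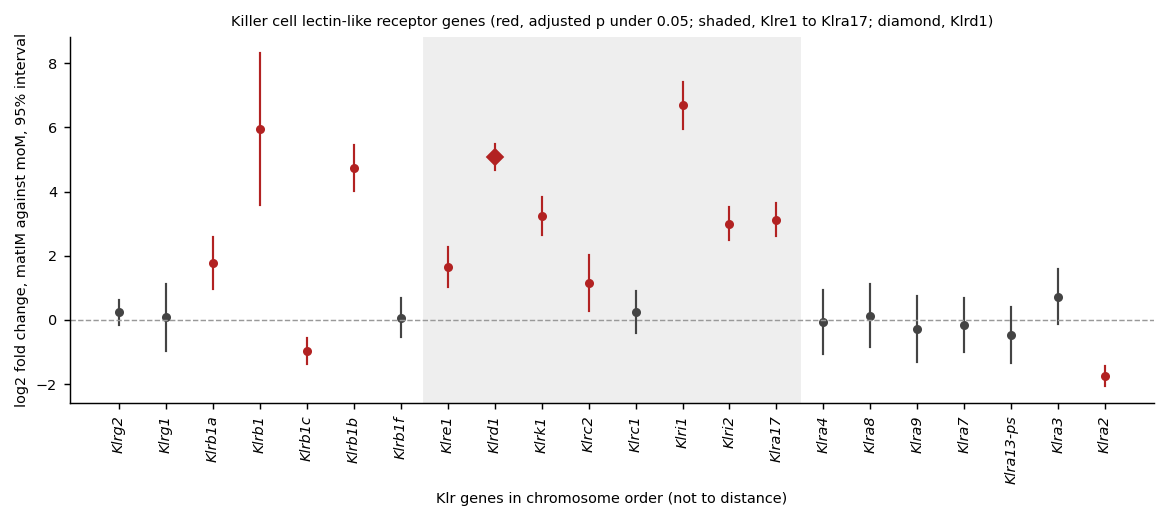
Log2 fold changes of 22 Klr genes of chromosome 6 between matIMs and moMs, with 95% intervals, in chromosome order and not to distance. Red marks an adjusted p under 0.05, and the diamond is Klrd1 (5.07). The shaded stretch from Klre1 to Klra17 was picked after its values were seen, and 7 of its 8 genes, Klrd1 included, were higher.

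Other genes of the T and NK cell programmes were counted by lists. For these and the later lists, 19.8% of all tested genes were higher and 18.1% lower in matIMs than in moMs. In tnsIMs against moMs these shares were 19.5% and 14.6%. Of 7 genes of the T cell receptor complex and its coreceptors, 2 were higher and 0 lower in matIMs than in moMs, and 0 moved in tnsIMs. Trac, the constant segment of the alpha chain, had means of 5.02 and 6.82 CPM in moMs and matIMs (adjusted p = 0.0693), and Cd247, the zeta chain, 3.15 and 3.33 CPM (adjusted p = 0.846). The 2 that rose were the coreceptors Cd4 (0.815 to 5.74 CPM, log2 fold change 2.81, SE 0.38, adjusted p = 9.63e-06) and Cd8a (1.39 to 3.87 CPM, log2 fold change 1.48, SE 0.27, adjusted p = 0.00026), both also carried by subsets of dendritic cells. Cd8b1, the partner of Cd8a in cytotoxic T cells, stood at 2.90 CPM in moMs and 1.79 in matIMs and did not pass the test (log2 -0.68, adjusted p = 0.075). Cd8a and Cd8b1 are named after their values were seen.

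Of 15 T cell signalling and adhesion genes, 5 were higher and 0 lower in matIMs than in moMs, with a median log2 fold change of 0.58 over the list and 0.01 over all tested genes. Ctla4, an inhibitory receptor, rose from 1.76 to 12.97 CPM (log2 fold change 2.90, SE 0.25, adjusted p = 2.40e-08), and Cd2, an adhesion receptor, from 8.81 to 18.5 CPM (log2 fold change 1.05, SE 0.18, adjusted p = 0.000156). The other 3 that rose, named after their values were seen, were Icos (1.44), Cd28 (0.69) and Cd5 (1.05), and the calls of Cd28 and of Cd5 each ended on leaving out any of 7 libraries. In tnsIMs 1 gene of the list rose, which was Ctla4 (0.92). Of 6 T cell transcription factors 2 rose in matIMs, among them Tcf7, from 5.55 to 9.90 CPM (log2 fold change 0.88, SE 0.18, adjusted p = 0.000782). The other was Foxp3, the factor of regulatory T cells, at means of 0.227 and 0.64 CPM, whose call ended on leaving out any of 9 libraries. Bcl11b, a factor that T cells require, was near 2 CPM in every population (log2 0.20 between matIMs and moMs, adjusted p = 0.684), and Lef1 did not pass (log2 -0.36, adjusted p = 0.312). In tnsIMs Gata3 (log2 fold change 0.90), named after its values were seen, was higher than in moMs.

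Of 12 NK receptor genes, 4 were higher and 2 lower in matIMs than in moMs, beside 19.8% and 18.1% of all tested genes. The 4 were Klrk1, Klri2, Klre1 and Klrc2, given above. Cd244a, the most abundant of the list and a receptor that myeloid cells also carry, fell from 289 to 151 CPM (log2 fold change -0.93, SE 0.20, adjusted p = 0.000986), and Klrb1c was the other that fell. Ncr1, which encodes the NK cell receptor NKp46, stood at 2.25 CPM in moMs, 1.61 in tnsIMs and 1.97 in matIMs, without passing the test between any of them. In tnsIMs Klrk1 rose and Cd244a fell.

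Of 8 cytotoxic effector genes 6 were tested, and 0 were higher or lower between any populations, with 0 of 6 at an unadjusted p under 0.05 in edgeR. Prf1, which encodes perforin, stood at 6.18, 5.40 and 7.03 CPM in moMs, tnsIMs and matIMs. Ctsw stood at 5.99, 5.88 and 5.04 CPM, and Fasl at 2.94, 2.45 and 2.43 CPM. Gzmc and Gzmk were too low to test, at means of at most 0.085 and 0.167 CPM. Of the 3 factors of the cytotoxic programme, Tbx21, which encodes T-bet, rose in matIMs from 3.00 to 13.9 CPM (log2 fold change 2.22, SE 0.30, adjusted p = 1.05e-05). Eomes, a factor of NK cell maturation, had means of 0.994, 0.533 and 0.608 CPM and was lower in tnsIMs than in moMs (log2 -0.90, adjusted p = 0.0452), a call that held in 9 of 27 alternatives. Zfp683 was near 0 in every population.

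Genes of the IL-2 and IL-15 axis moved in both directions. Of 8 tested, 4 were higher and 2 lower in matIMs than in moMs, and 2 were higher and 3 lower in tnsIMs. Il2ra, the alpha chain that gives the IL-2 receptor its high affinity, is named after its values were seen. It was found at 0.433 to 2.87 CPM in moMs, 4.06 to 7.40 CPM in tnsIMs and 38.8 to 85.4 CPM in matIMs, and the 3 ranges did not overlap. Its log2 fold change in matIMs was 5.06 (SE 0.29, adjusted p = 1.40e-10), while that of the beta chain Il2rb was -0.09. The gamma chain Il2rg rose from 197 to 291 CPM (log2 fold change 0.56, SE 0.16, adjusted p = 0.0109). Among the transducers, Jak1 fell by 0.42 and Stat5b by 0.38 on the log2 scale, and Stat5b did not pass when counts were scaled by library totals alone (-0.27, adjusted p = 0.144). Stat5a (1.49) and Il15ra (0.71), named after their values were seen, rose.

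**Figure D4:**
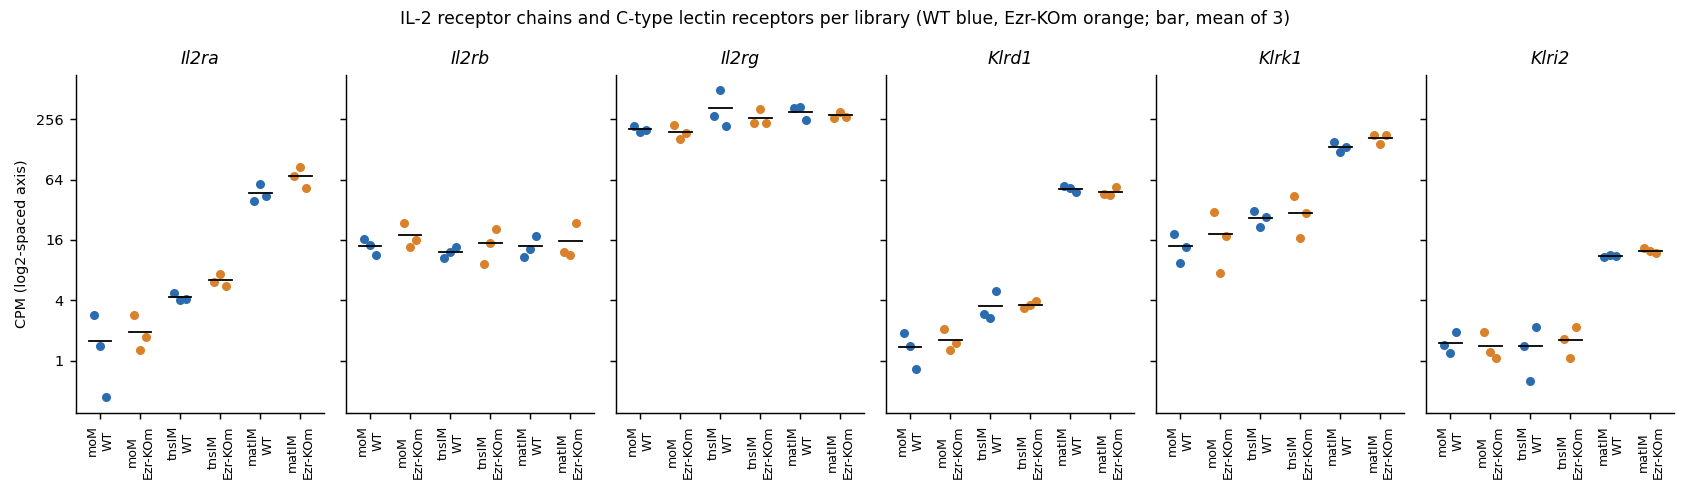
CPM per library (vertical axis, spaced in log2) of the 3 IL-2 receptor chains and of 3 lectin-like receptors, by population and genotype. Points are libraries and bars means of 3. Il2ra, Klrd1, Klrk1 and Klri2 lie apart in matIMs, and Il2rb overlaps between all populations.

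The genes whose profile over the 18 libraries was most like that of the CD3 chains were Osgepl1, Mpg, Ttc7b, Aopep and Pidd1. Likeness was the root mean square difference between log2 CPM values centred on their means, 0.237 for Osgepl1 and 0.261 for Pidd1. For the mean profile of Klrd1, Nkg7, Gzma and Gzmb they were Gimap7, Fyn, Inpp4b, Tk1 and Jak2 (0.308 to 0.369). Since Klrd1 moved apart from the other 3, its own nearest genes were sought after its values were seen: P2ry10, Tbc1d4, Gm10851, Gm47662 and Il2ra (0.361 to 0.492). P2ry10 had means of 3.77, 10.97 and 104 CPM in moMs, tnsIMs and matIMs. The 9 other T and NK cell transcripts lay at 2.03 to 2.19 from Klrd1 by the same measure.

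Markers of other cells moved with Klrd1. Of 6 dendritic cell genes, 5 were higher and 1 was lower in matIMs than in moMs, and 4 were higher and 2 lower in tnsIMs. Dendritic cells that carry CD11c were outside the gate. The summed level of these genes was 58.3 to 72.6 CPM in moMs, 156 to 309 in tnsIMs and 2610 to 3678 in matIMs, with Ccr7 and Fscn1 the most abundant in matIMs. Xcr1, a marker of cross-presenting dendritic cells, was the one that fell (6.60 to 4.28 CPM), a call that ended on leaving out any of 8 libraries. Clec9a, another marker of these cells and named after its values were seen, went the other way. It was higher than in moMs both in matIMs (log2 fold change 2.48, adjusted p = 1.88e-05 by edgeR) and in tnsIMs (1.43, adjusted p = 0.00463). Of 6 B cell genes, 6 were higher in matIMs and 5 in tnsIMs. Their summed level was 8.79 to 13.3 CPM in moMs, 40.1 to 110 in tnsIMs and 90.8 to 238 in matIMs. Pax5 was near 0 in moMs (0.0135 CPM). Of 5 plasmacytoid dendritic cell genes 3 were higher in matIMs, with summed levels of 62.4 to 88.7 CPM in moMs and 117 to 151 in matIMs, and Siglech, which defines these cells, was at 1.09 CPM there. The part of these cells in the level of Klrd1 was not tested. Of the mast cell and basophil genes, Mcpt8, Cpa3 and Ms4a2 had means of at most 0.251 CPM in every population. Of the group 2 innate lymphoid cell genes, Il13 and Il5 had means of at most 0.0954 CPM, and Il1rl1 rose from 0.39 to 6.50 CPM in matIMs.

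Markers of other lung cells moved between populations in which the 9 transcripts did not. The summed level of 4 epithelial genes was 9.64 to 58.1 CPM in moMs, 625 to 1954 in tnsIMs and 79.2 to 175 in matIMs. The summed level of 3 endothelial genes was 49.8 to 78.9, 126 to 264 and 39.9 to 57.4 CPM in the same order, and that of 3 fibroblast genes 14.9 to 36.0, 58.9 to 107 and 8.09 to 20.2 CPM. Granulocytes and CD11c+ alveolar macrophages were outside the gate. Of 6 neutrophil genes, 4 were higher and 1 was lower in matIMs than in moMs, and 5 were higher and 1 lower in tnsIMs. Their sum nevertheless ran from 300 to 519 CPM in moMs to 162 to 319 in tnsIMs and 105 to 287 in matIMs, and the fall of the sum came from Mmp8, which fell by 4.74 on the log2 scale in matIMs, while Ly6g, which defines neutrophils, had means of at most 0.566 CPM. Of 5 alveolar macrophage genes, 4 were higher and 1 was lower in matIMs and likewise in tnsIMs. Their sum of 4930 to 8384, 938 to 2045 and 396 to 694 CPM fell with Chil3, which fell by 4.33 in matIMs, while Siglecf rose from 2.22 to 8.02 CPM and Marco from 3.59 to 98.2 CPM. The part of these cells in the values of the 10 transcripts was not tested.

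The study compared Ezr-KOm with WT mice within each population. For the 10 transcripts, 0 passed an adjusted p of 0.05 in moMs, tnsIMs or matIMs, where 0.171%, 0.164% and 0.152% of all tested genes did. By the rule in the study's methods, which asks for a log2 fold change beyond 0.75 either way and a p below 0.05 before adjustment, 0 passed as well, where 2.51%, 1.83% and 2.4% of all tested genes did. At an unadjusted p under 0.05 alone, 0 of 10 passed in edgeR in each population, and DESeq2 called 0. Trbc2 in moMs was the only case without overlap, with its lowest Ezr-KOm library at 2.51 CPM and its highest WT library at 2.49 CPM (log2 0.37, 95% interval -0.22 to 0.97). The share of all tested genes without overlap was not counted, so this case is a description only.

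The precision differed between transcripts. For Klrd1 in matIMs the log2 difference of Ezr-KOm from WT was -0.11 (95% interval -0.57 to 0.36). For Gzma and Gzmb the intervals were wide, from -0.92 to 0.99 and from -1.01 to 1.01 in matIMs and from -1.08 to 0.85 and from -1.05 to 0.99 in moMs. A change of either granzyme by about 2-fold between genotypes would therefore not have been detectable here. The largest estimate in moMs was that of Cd3e (0.40, 95% interval -0.29 to 1.09), in tnsIMs that of Nkg7 (-0.38, 95% interval -1.03 to 0.28) and in matIMs that of Cd3e again (0.29, 95% interval -0.39 to 0.97). No interaction of genotype and population passed the test for any of the 10 (0 called, 0% of all tested genes in each of the 3 interactions). At an unadjusted p under 0.05 in edgeR, 0 of 10 passed. The interaction intervals were wide, for Gzmb -1.41 to 1.48 between tnsIMs and moMs. These tests therefore cannot show that the genotype difference is the same in every population.

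**Figure D5:**
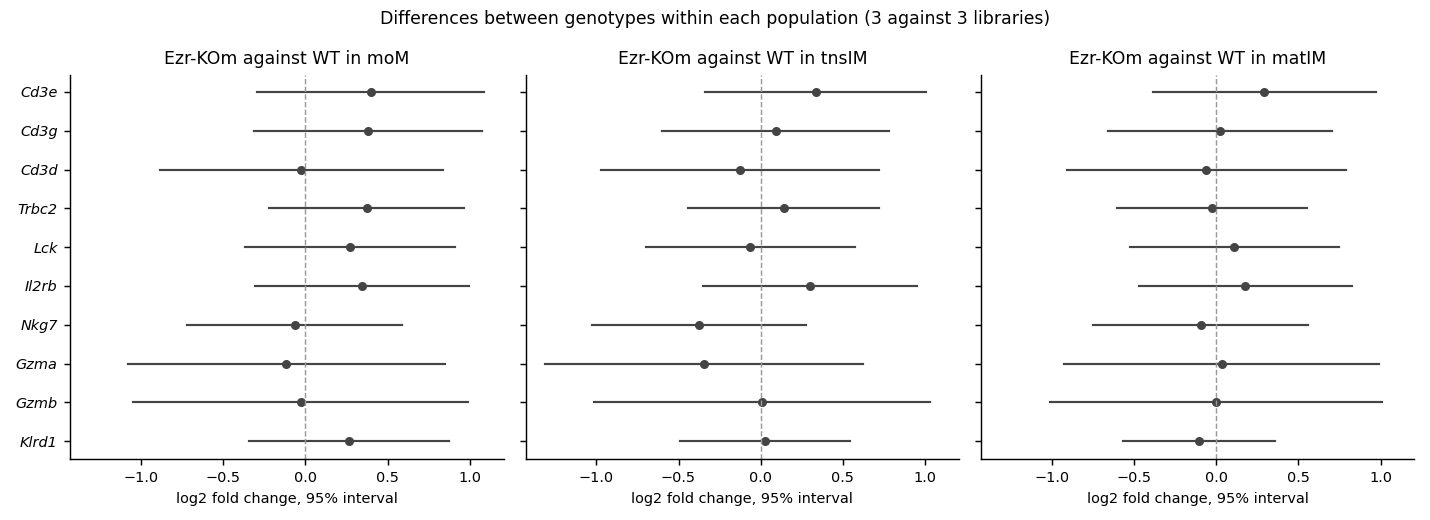
Log2 fold changes of the 10 transcripts between Ezr-KOm and WT within moMs, tnsIMs and matIMs (3 against 3 libraries), with 95% intervals. Every interval includes 0, and the widest are those of Gzma and Gzmb.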

How the data were processed

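RNA of FACS-sorted lung cells was made into libraries with the SMART-Seq v4 and Nextera XT kits, which do not mark strand. The authors aligned the paired reads with STAR 2.7.9a to GRCm39, assigned them to genes with the aligner's own counting and a Gencode annotation, and the deposited counts are whole numbers with no normalization. Which strand column of the counts was taken is not given in the sources used here. Columns were matched to samples by name, and 0 columns lay outside the labels.

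Counts were tested with edgeR 4.0.16 in R 4.3.3. Genes passing filterByExpr (15811 of 21254) were scaled by TMM, and all 18 libraries entered a single quasi-likelihood fit with a term for each of the 6 groups. Population contrasts averaged both genotypes, and p-values were adjusted over all tested genes (Benjamini-Hochberg, threshold 0.05). The fit was tested on simulated data. CPM values use TMM-scaled library sizes, and CPM per kb divides them by the union of exons in Gencode vM39. Similar transcripts were sought on the same strand with BLAST+ 2.17.0. Gene positions are those of the deposited table, and promoter windows start at the canonical transcript of Gencode vM39, on the same build. Where a range of CPM is given, depth sets its precision, and at 21 reads counting error is large.

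The members, lists and tests were chosen with earlier results of these data known. All 10 members were named, with at most the 3 most abundant genes of each pathway list, 5 genes of like pattern for each of 2 profiles and Ezr, and other names are marked in the text. Some genes of the lists are not reported here. WT and Ezr-KOm libraries of 1 population with the same replicate number deviated together (r 0.102 to 0.316 in 9 pairs, at most 0.0508 for other numbers), as did populations of 1 genotype (0.0905 to 0.397 in 18 pairs). The study used 3 mice per genotype, which implies that the 3 populations of a genotype came from the same mice, and the labels do not say which number is which mouse. Population contrasts that ignore this were repeated with a block by replicate number within genotype. This block stands for the mouse only if equal numbers mark the same mouse. DESeq2 1.42.0, other scalings and filters, a replicate block and the omission of each library were tried as alternatives.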

Additional observations from a re-analysis of the deposited data

How the results depend on the processing

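Klrd1 was called higher in all 28 alternatives of each of the 3 population comparisons, with a log2 fold change of 1.13 to 1.42 in tnsIMs against moMs, 4.89 to 5.25 in matIMs against moMs and 3.69 to 3.92 in matIMs against tnsIMs. Of 756 alternative values of the other 9 transcripts between populations, 754 stayed outside the call. Of the 27 uncalled differences behind these values, 17 changed sign in at least 1 alternative. In tnsIMs against moMs, leaving out each library in turn gave 1 to 2 of the 10 called, the 2 being Klrd1 and Cd3e without tnsIM Ezr-KOm replicate 1. In matIMs against moMs, scaling by library totals only gave 2, Klrd1 and Trbc2. In the genotype comparisons 0 were called in every alternative (780 values), and 20 of 30 of these uncalled differences changed sign in at least 1 of them. With the replicate block the counts of members called were 1, 1 and 1 between populations and 0 in each genotype comparison and interaction. With the block by replicate number within genotype they were again 1, 1 and 1 between populations. Neither block changed a call of a member, and whether equal numbers mark the same mouse is not known. Among the genes of the lists and the Klr family, 4750 of 5007 values of called population differences stayed called, 257 lost the call and 0 reversed. Counts of 21 to 48 reads for Klrd1 in moMs, and like counts for the CD3 chains and Trbc2, limit what can be seen there, and the causes of the changed calls were not tested.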
